A study of Mus musculus with 12 samples.

Results

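Protocadherin genes were taken from the deposited expression table as the rows annotated as protein-coding whose gene name begins with Pcdh. There were 69 such genes of 55862 rows in the table, 14 in the alpha cluster (Pcdha), 22 in the beta cluster (Pcdhb), 21 in the gamma cluster (Pcdhg) and 12 outside the clusters. The rule used names and annotation and no measured value. RNA from C57BL/6 mouse brain cells was sequenced in 12 libraries, 3 in each of 4 groups. A-iSC were cells made from astrocytes by 5 days of incubation as 3D cell spheres. P56-NSC and P0-NSC, neural stem or progenitor cells taken from brain, served as positive controls and are called NPC in the design text, with no age given beyond the P56 and P0 in their names. AST were astrocytes at 0 days of incubation, the negative control. The sources used here do not name what else the spheres received, nor do they say that libraries of one group are from different cultures or mice, so each p-value below is set against library-to-library spread that may be technical only.

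Protocadherins are cell-surface adhesion molecules of the cadherin superfamily. In the clustered genes each alpha or gamma messenger joins 1 variable exon to a set of constant exons shared by the whole cluster, while each beta gene stands alone with no shared exons. Single neurons express small, differing sets of them, chosen promoter by promoter with the help of CTCF, cohesin and DNA methylation, and the proteins bind like to like and let a neuron tell its own branches from those of its neighbours. The C-type genes at the end of the alpha and gamma clusters are not chosen in this way and are used more broadly or in particular cell types. The non-clustered protocadherins, most of them in the delta1 and delta2 families, act in cell sorting, axon growth and synapse formation.

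The upstream sequences of 3 of the 5 non-clustered genes that differed between A-iSC and AST are shown here as examples, since a promoter outside the clusters belongs to 1 gene alone. Each is the 250 bases before the RefSeq start (GRCm38.p6), on the strand of the gene, with capitals at matches on either strand to any of 3 promoter motifs. The TATA box was searched as TATAAA. The second motif, the CCAAT box, reads as its name or as ATTGG on the other strand. The GC box was searched as GGGCGG. Pcdh18 (chr3:49757317-49757566, minus strand) and Pcdh19 (chrX:133688994-133689243, minus strand) were lower in A-iSC than in AST, and Pcdh8 (chr14:79771313-79771562, minus strand) was higher.
Pcdh18: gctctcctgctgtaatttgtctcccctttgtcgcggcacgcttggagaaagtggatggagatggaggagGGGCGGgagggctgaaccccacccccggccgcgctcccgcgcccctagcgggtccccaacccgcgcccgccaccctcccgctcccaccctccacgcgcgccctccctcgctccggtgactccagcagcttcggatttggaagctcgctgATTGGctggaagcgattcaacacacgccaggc
Pcdh19: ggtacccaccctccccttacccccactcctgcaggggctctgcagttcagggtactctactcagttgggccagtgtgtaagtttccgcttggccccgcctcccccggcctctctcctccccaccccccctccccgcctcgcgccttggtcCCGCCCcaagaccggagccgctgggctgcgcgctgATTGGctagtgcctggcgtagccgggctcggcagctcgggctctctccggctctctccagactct
Pcdh8: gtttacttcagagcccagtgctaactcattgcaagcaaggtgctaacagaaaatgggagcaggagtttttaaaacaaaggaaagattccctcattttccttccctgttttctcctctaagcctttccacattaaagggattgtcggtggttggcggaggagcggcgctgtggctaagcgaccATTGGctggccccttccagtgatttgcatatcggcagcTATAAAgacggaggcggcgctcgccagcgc

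Of the 10 non-clustered genes away from chromosome 18, 9 had such a window, and 8 of these 9 held a CCAAT match (all but Pcdh7), beside 34.5% of the 27025 windows searched. A TATAAA match stood in 2 of the 9, Pcdh8 (its first base 30 bases before the start) and Pcdh15 (33 bases before it), beside 13.0% of all windows. Pcdh18 held 23 CG dinucleotides, Pcdh19 held 16 and Pcdh8 held 11, beside a median of 6 over all windows. Genes that did not pass in A-iSC against AST held the same features, with a CCAAT match and 22 CG dinucleotides in Pcdh10 and 18 in Pcdh9, while Pcdh7, which fell, had 7 and no CCAAT match. The GC box matched in 4 of the 9 windows (32.9% of all) and the E-box CANNTG in 2 (66.0%). The TEAD motif GGAATG (12.6% of all) and the RBPJ motif GTGGGAA (5.41%) matched in 0. A match is a description of the letters in the window.

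The 3 clusters lie side by side on the plus strand of chromosome 18, the alpha cluster at 36930184 to 37187661, the beta cluster at 37264938 to 37524479 and the gamma cluster at 37661793 to 37841873 (GRCm38). Of the 12 non-clustered genes, 2 (Pcdh1 and Pcdh12) lie on the same chromosome, so that 59 of the 69 genes do. Values are FPKM as deposited, that is, reads per kb of gene length scaled for library size. Libraries held 17077780 to 24452419 recovered reads. Under the authors' scaling, which did not follow these read numbers alone, a single read added 0.0343 to 0.0623 FPKM to a 1 kb gene. Constant exons are annotated to many alpha and gamma genes at once, and a median of 46.4% of the bases of an alpha gene and 54.8% of the bases of a gamma gene were its own, against 100% in the beta cluster. The gene length behind an alpha or gamma FPKM includes those shared bases. Pcdhga10, with 0% of its bases its own, was at 0 to 0.0378 FPKM in the 12 libraries, and Pcdha4, with 7.0%, was at 0 to 0.0126 FPKM, so neither could be assessed.

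Some libraries stood apart before any protocadherin was considered. Within A-iSC and AST, each gene's deviation from its group mean followed gene length, with Spearman correlations across genes of 0.328 in A-iSC 3, 0.361 in AST 1 and 0.385 in AST 3, against -0.281 in A-iSC 1, -0.233 in A-iSC 2 and -0.450 in AST 2. Protocadherin results of A-iSC against AST are therefore given below also within A-iSC 3, AST 1 and AST 3 and within A-iSC 1, A-iSC 2 and AST 2 for the counts of the beta and gamma genes, for Pcdhgc5 and for the non-clustered genes called. Genes of the related lists were fitted over all libraries only. Markers of several cell types also differed between the groups. The 10 oligodendrocyte markers summed to 6182 to 7199 FPKM in P56-NSC and to at most 221 FPKM in any other library, with Mobp at 0 in all 3 AST libraries. The 10 neuronal markers summed to 55.0 to 71.5 FPKM in A-iSC, 260.7 to 325.5 FPKM in P56-NSC, 878.2 to 1059 FPKM in P0-NSC and 95.6 to 131 FPKM in AST. Singly, 3 of these 10 neuronal markers were higher and 3 lower in A-iSC than in AST. The 7 endothelial markers summed to 76.4 to 80.9 FPKM in P0-NSC and to at most 6.67 FPKM elsewhere, with Cldn5 at 0 in all 3 AST libraries. The 8 microglial markers summed to 2074 to 2559 FPKM in A-iSC, 653.9 to 709.6 FPKM in P56-NSC, 86.7 to 104.8 FPKM in P0-NSC and 164.8 to 209.5 FPKM in AST. The 8 fibroblast and mural markers summed highest in AST (1884 to 2269 FPKM), where Acta2 alone averaged 1848 FPKM. In P0-NSC against AST, 5 of these 8 markers were higher and 2 lower. The 8 ependymal and choroid plexus markers summed highest in P56-NSC (1643 to 3377 FPKM) and P0-NSC (838.6 to 3902 FPKM). Against the labels, Nes, an intermediate filament gene of neural progenitors, averaged 3.76 FPKM in P56-NSC and 196 FPKM in AST, and the 10 astrocyte markers summed to 1141 to 2332 FPKM in A-iSC, 3963 to 4246 FPKM in P56-NSC, 275.5 to 338.1 FPKM in P0-NSC and 187.8 to 209.5 FPKM in AST. Singly, 5 of these 10 astrocyte markers were higher and 4 lower in P0-NSC than in AST. The part of these other cell types in the protocadherin values was not tested, and in such bulk samples fewer cells of a type and less RNA per cell cannot be told apart.

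P0-NSC had the highest group mean for 14 alpha, 14 beta, 13 gamma and 4 non-clustered genes, P56-NSC for 4 beta, 6 gamma and 6 non-clustered genes, A-iSC for 4 beta genes, and AST for 2 gamma and 2 non-clustered genes. These counts include Pcdhga10, with 10 reads in all, among the gamma genes of AST, and Pcdha4 and 1 of the 2 rows named Pcdha11, with 4 and 5 reads in all, among the alpha genes of P0-NSC. Against AST and with no minimum level, A-iSC was higher in 14 of the 22 beta genes (14.2% of all genes) and lower in 4 of the 12 non-clustered genes (14.9%). Differences were tested with limma on log2(FPKM + 1) over all genes, and log2 differences below are on that scale. With no minimum level, all 69 genes entered among 34776. In A-iSC against AST, 16 of the 69 rose (23.2%, beside 14.2% of all genes) and 5 fell (7.25%, beside 14.9%). In P56-NSC against AST, 37 rose (53.6%, beside 22.2%) and 3 fell (4.35%, beside 18.9%). In P0-NSC against AST, 51 rose (73.9%, beside 24.2%) and 3 fell (4.35%, beside 19.4%). These 3 comparisons share the AST libraries. Against P56-NSC, A-iSC had 6 genes higher (8.70%, beside 15.6%) and 25 lower (36.2%, beside 18.3%). Against P0-NSC, A-iSC had 3 higher (4.35%, beside 16.7%) and 39 lower (56.5%, beside 22.3%). In P56-NSC against P0-NSC, 11 were higher (15.9%, beside 19.5%) and 27 lower (39.1%, beside 21.1%).

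With a minimum of 1 FPKM in 3 libraries, 39 of the 69 genes entered among 15747 (1 alpha, 9 beta, 19 gamma and 10 non-clustered). Of these, 2 (Pcdhb8 and Pcdh11x) reached the minimum through 1 group only, and no beta gene reached 1 FPKM in any AST library, so the counts of these 39 are a description. In A-iSC against AST, 14 were higher and 5 lower (28.1% and 30.8% of all genes). In P56-NSC against AST, 25 were higher and 3 lower (37.1% and 37.0%). In P0-NSC against AST, 28 were higher and 4 lower (35.9% and 38.3%). In A-iSC against P56-NSC, 6 were higher and 17 lower (31.5% and 31.3%), and against P0-NSC 4 were higher and 20 lower (32.6% and 34.7%). In P56-NSC against P0-NSC, 8 were higher and 14 lower (35.3% and 33.9%). Scaling by total reads in place of the authors' scaling moved the median log2 difference of all genes, and with it the share of calls that were higher. For A-iSC against AST the median moved to 0.12 and the share to 61.1% from 47.7%, and for P56-NSC against AST to -0.25 and to 38.1% from 50.1%. For P0-NSC against AST the median moved to 0.17 and the share to 59.0% from 48.4%, for A-iSC against P56-NSC to 0.44 and to 74.1% from 50.1%, and for P56-NSC against P0-NSC to -0.46 and to 26.4% from 51.0%. Adjusted p-values of single genes below come from the set of 39 under the authors' scaling unless stated.

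**Figure D1:**
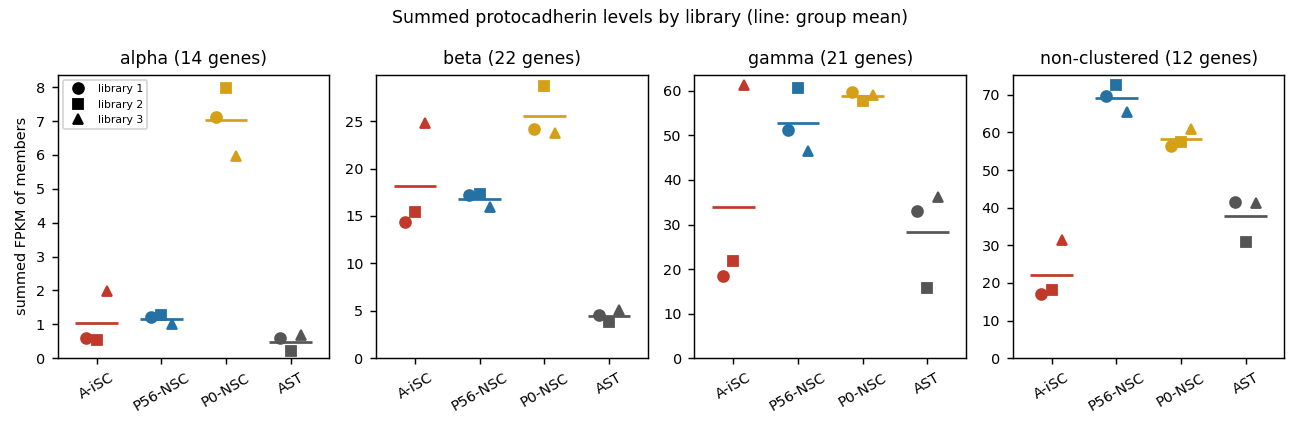
Summed FPKM of the members of each cluster and of the non-clustered genes (vertical axes, linear from 0), with 1 point per library and a line at each group mean. A-iSC 3 sits at 61.4 summed FPKM in the gamma panel, above the other 2 A-iSC libraries, and AST lies lowest in the beta panel.

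The beta cluster was raised in A-iSC. Its 22 genes summed to 14.4, 15.4 and 24.8 FPKM in A-iSC (18.2 ± 5.72, SD, n = 3), 16.8 ± 0.755 FPKM in P56-NSC, 25.5 ± 2.73 FPKM in P0-NSC and 4.48 ± 0.588 FPKM in AST. No A-iSC library overlapped with AST in this sum. With no minimum level, 14 of the 22 rose in A-iSC against AST and 0 fell (14.2% and 14.9% of all genes). The median log2 difference was 0.45 beside 0 over all genes. In P56-NSC 17 rose (22.2% of all genes) and in P0-NSC 19 rose (24.2%), with 0 lower in each (18.9% and 19.4%).

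Pcdhb20 was at 2.26, 2.98 and 3.35 FPKM in A-iSC, 1.04, 1.31 and 1.31 FPKM in P56-NSC, 2.96, 2.70 and 2.77 FPKM in P0-NSC and 0.469, 0.637 and 0.530 FPKM in AST. A-iSC and P0-NSC overlapped in Pcdhb20, and both lay above every library of the other 2 groups. Its log2 difference between A-iSC and AST was 1.31 (SE 0.11, adjusted p = 9.5e-07). Pcdhb22 was at 2.12, 2.04 and 3.45 FPKM in A-iSC, 0.985, 0.971 and 1.06 FPKM in P56-NSC, 1.22, 1.65 and 1.60 FPKM in P0-NSC and 0.758, 0.642 and 0.603 FPKM in AST. All 3 A-iSC libraries were above the other 9 in Pcdhb22, and the log2 difference was 1.06 (SE 0.14, adjusted p = 3.2e-05) against AST, 0.80 (adjusted p = 0.00026) against P56-NSC and 0.49 (adjusted p = 0.0069) against P0-NSC. Pcdhb22 was 1 of 4 beta genes with their highest group mean in A-iSC, while 14 were highest in P0-NSC and 4 in P56-NSC.

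Pcdhb9 and Pcdhb7 differed from this order. Pcdhb9 was at 0.650, 0.716 and 1.59 FPKM in A-iSC, 2.72, 2.37 and 2.66 FPKM in P56-NSC, 3.22, 4.05 and 2.60 FPKM in P0-NSC and 0.0390, 0.0646 and 0.159 FPKM in AST. A-iSC rose over AST by a log2 difference of 0.84 (SE 0.17, adjusted p = 0.0010) and lay below P56-NSC by -0.88 (adjusted p = 0.00061) and below P0-NSC by -1.13 (adjusted p = 7.6e-05). Pcdhb7 averaged 0.898 ± 0.284 FPKM in A-iSC, 1.22 ± 0.139 FPKM in P56-NSC, 2.57 ± 0.181 FPKM in P0-NSC and 0.171 ± 0.0443 FPKM in AST (SD, n = 3 each). Pcdhb17 averaged 2.31 ± 0.233 FPKM in A-iSC, 1.25 ± 0.107 FPKM in P56-NSC, 2.38 ± 0.176 FPKM in P0-NSC and 0.873 ± 0.180 FPKM in AST, and A-iSC exceeded AST by a log2 difference of 0.82 (adjusted p = 1.6e-05). Pcdhb19 averaged 0.952 ± 0.371 FPKM in A-iSC, 0.394 ± 0.0581 FPKM in P56-NSC, 1.36 ± 0.161 FPKM in P0-NSC and 0.324 ± 0.0651 FPKM in AST. Its rise in A-iSC (log2 difference 0.54, adjusted p = 0.0020) had an adjusted p of 0.057 after quantile normalization. Pcdhb1 was at 0 in all A-iSC and AST libraries and at 0.195 ± 0.0636 FPKM in P56-NSC.

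Over all 22 beta genes, the sum was 14.4 and 15.4 FPKM in A-iSC 1 and A-iSC 2, against 3.86 FPKM in AST 2. It was 24.8 FPKM in A-iSC 3, against 4.55 and 5.03 FPKM in AST 1 and AST 3. No AST library took a beta gene past the minimum, which favours genes above AST, so the counts that follow are a description. All 9 beta genes above the minimum were higher in A-iSC than in AST in both subsets of libraries. Their median ratio was 3.27 within A-iSC 1, A-iSC 2 and AST 2 (0.97 over all genes) and 5.38 within A-iSC 3, AST 1 and AST 3 (0.99). Without A-iSC 3, 8 of the 9 passed the test. After quantile normalization 7 did.

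**Figure D2:**
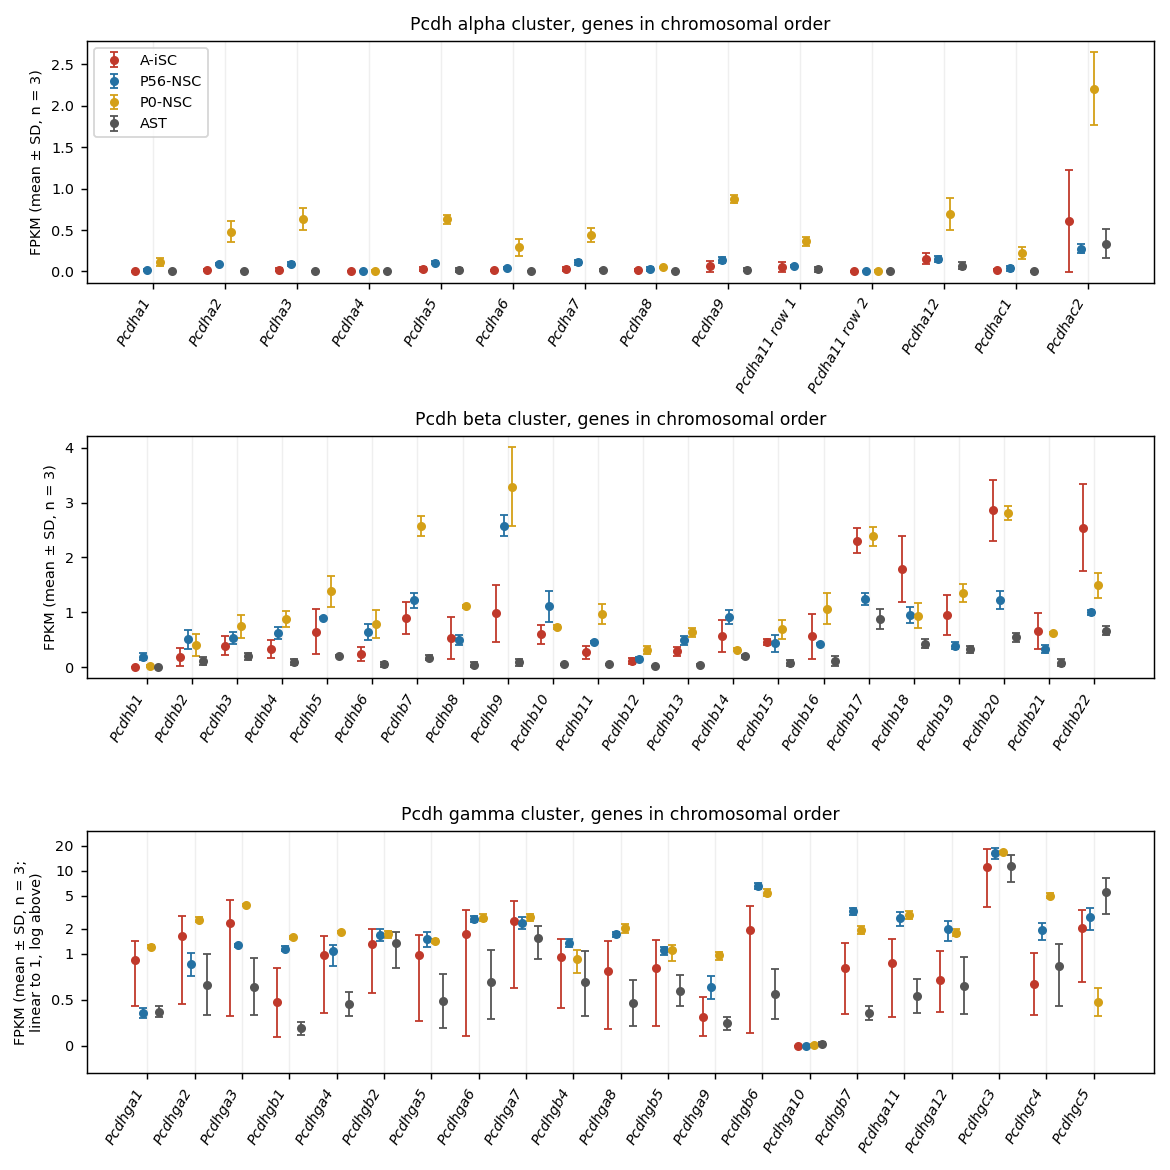
Level of each clustered gene in chromosomal order, as mean FPKM and SD (n = 3) per group (vertical axes linear for alpha and beta, linear to 1 FPKM and logarithmic above it for gamma). P0-NSC lies highest across the alpha cluster, A-iSC and P0-NSC share the top of the beta cluster at Pcdhb17 and Pcdhb20, and AST lies above the other 3 groups at Pcdhgc5.

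The alpha cluster was near 0 outside P0-NSC. Its 14 genes summed to 0.602, 0.536 and 1.98 FPKM in A-iSC, 1.16 ± 0.137 FPKM in P56-NSC, 7.03 ± 1.0 FPKM in P0-NSC and 0.491 ± 0.259 FPKM in AST. These sums rest on 67 to 303 reads per A-iSC library, 90 to 114 per P56-NSC library, 900 to 1281 per P0-NSC library and 23 to 73 per AST library. P0-NSC held the highest mean of each of the 14, though Pcdha4 and 1 row of Pcdha11 had too few reads to be assessed. With no minimum level, 12 of 14 rose in P0-NSC against AST (24.2% of all genes) and 3 in P56-NSC against AST (Pcdha5, Pcdha7 and Pcdha9, beside 22.2%). In A-iSC against AST 0 rose and 0 fell (14.2% and 14.9% of all genes). There the median log2 difference was 0.03, and small changes were not detectable at these read numbers.

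Pcdhac2, the C-type alpha gene that serotonergic neurons use to space their axons, was the highest alpha gene in all 12 libraries. It stood at 0.211, 0.300 and 1.32 FPKM in A-iSC, 0.284, 0.328 and 0.217 FPKM in P56-NSC, 2.39, 2.53 and 1.70 FPKM in P0-NSC and 0.344, 0.159 and 0.503 FPKM in AST. A-iSC 3 alone lay above AST, and the log2 difference of A-iSC over AST was 0.21 (SE 0.21, adjusted p = 0.41). P0-NSC rose over AST by 1.26 (SE 0.21, adjusted p = 0.00017). Of the others, Pcdha9 averaged 0.0628 ± 0.0666 FPKM in A-iSC, 0.138 ± 0.0394 FPKM in P56-NSC, 0.876 ± 0.0478 FPKM in P0-NSC and 0.0212 ± 0.0185 FPKM in AST. Pcdha12 averaged 0.155 ± 0.0694 FPKM in A-iSC, 0.147 ± 0.0353 FPKM in P56-NSC, 0.694 ± 0.189 FPKM in P0-NSC and 0.0701 ± 0.0420 FPKM in AST, and Pcdha5 reached 0.631 ± 0.0544 FPKM in P0-NSC, against 0.0184 ± 0.0242 FPKM in AST. Pcdhac1, the other C-type alpha gene, averaged 0.225 ± 0.0705 FPKM in P0-NSC and 0.00367 ± 0.00635 FPKM in AST. Pcdha9, Pcdha12, Pcdha5 and Pcdhac1 all rose in P0-NSC against AST with no minimum level (limma, highest adjusted p = 8.9e-05, for Pcdhac1). The summed neuronal markers were also highest in P0-NSC (values above). Singly, 4 of the 10 were higher and 4 lower in P56-NSC than in P0-NSC. The part of neuronal RNA in the alpha values was not tested.

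The gamma cluster gave the highest clustered values and the widest spread. Its 21 genes summed to 18.5, 21.8 and 61.4 FPKM in A-iSC, 52.8 ± 7.29 FPKM in P56-NSC, 58.8 ± 1.0 FPKM in P0-NSC and 32.9, 15.7 and 36.1 FPKM in AST. A-iSC and AST overlapped. In A-iSC 3 all 19 gamma genes above the minimum exceeded the mean of A-iSC 1 and A-iSC 2, with a median ratio of 2.88, and in AST 2 all 19 were below the mean of AST 1 and AST 3, with a median ratio of 0.422. With no minimum level, 1 of 21 rose in A-iSC against AST (Pcdhga1) and 1 fell (Pcdhgc5), beside 14.2% and 14.9% of all genes. With the minimum, 4 of 19 rose (Pcdhga3, Pcdhgb6, Pcdhga1 and Pcdhgb7) and 1 fell, beside 28.1% and 30.8% of all genes. Without A-iSC 3 these counts were 2 and 2, without AST 2 they were 1 and 1, and without both libraries 1 and 4. In each subset of A-iSC and AST libraries, 17 of the 19 genes had a ratio of A-iSC over AST above 1. The median was 2.51 among A-iSC 3, AST 1 and AST 3 (0.99 over all genes) and 2.07 among A-iSC 1, A-iSC 2 and AST 2 (0.97). After quantile normalization 0 of the 19 rose and 1 fell.

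Against the brain-derived cells, 1 of 19 gamma genes of A-iSC was above and 7 below P56-NSC (31.5% and 31.3% of all genes), and 1 was above and 8 below P0-NSC (32.6% and 34.7%). The lower counts are near the share of all genes. Leaving out A-iSC 3 raised the lower counts to 15 and 17. Among A-iSC 3, AST 1 and AST 3 with the NSC libraries they were 5 and 4, beside 6 and 4 higher, so the direction did not hold there. Pcdhgb6 showed the largest of these differences against P56-NSC. It was at 0.964, 0.844 and 4.03 FPKM in A-iSC, 6.21, 7.12 and 6.12 FPKM in P56-NSC, 6.04, 5.17 and 5.08 FPKM in P0-NSC and 0.688, 0.253 and 0.747 FPKM in AST. The A-iSC libraries lay between AST and the NSC libraries with no overlap, and A-iSC differed from P56-NSC by a log2 difference of -1.505 (SE 0.30, adjusted p = 0.00096). Its difference from AST (log2 0.77, adjusted p = 0.047) did not pass without A-iSC 3 and in 13 other settings.

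Pcdhgb7 was at 0.474, 0.651 and 1.41 FPKM in A-iSC, 3.19, 3.54 and 2.99 FPKM in P56-NSC, 2.13, 1.74 and 1.93 FPKM in P0-NSC and 0.418, 0.272 and 0.377 FPKM in AST. P56-NSC was highest with no overlap, and exceeded P0-NSC by a log2 difference of 0.53 (SE 0.15, adjusted p = 0.0083), a call lost when libraries were scaled by total reads. Pcdhga3 went the other way between these groups, at 1.09, 1.28 and 4.72 FPKM in A-iSC, 1.28, 1.31 and 1.21 FPKM in P56-NSC, 4.0, 3.80 and 3.78 FPKM in P0-NSC and 0.771, 0.293 and 0.867 FPKM in AST. P56-NSC was below P0-NSC by a log2 difference of -1.10 (SE 0.30, adjusted p = 0.0060), and A-iSC 3 alone lay above P0-NSC. Pcdhga7 averaged 2.49 ± 1.86 FPKM in A-iSC, 2.35 ± 0.389 FPKM in P56-NSC, 2.74 ± 0.239 FPKM in P0-NSC and 1.54 ± 0.596 FPKM in AST, and none of its 6 comparisons passed the test. Without A-iSC 3, 4 of them passed, with a log2 difference of A-iSC of -0.47 against P56-NSC (adjusted p = 0.033) and -0.63 against P0-NSC (adjusted p = 0.0070). Among A-iSC 3, AST 1 and AST 3 with the NSC libraries these differences were 0.76 (adjusted p = 0.0025) and 0.59 (adjusted p = 0.0080), in the other direction.

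The 3 C-type gamma genes held a larger share of the cluster in AST than elsewhere. Pcdhgc3, Pcdhgc4 and Pcdhgc5 together made up 39.1% to 42.3% of summed gamma FPKM in A-iSC, 37.3% to 40.6% in P56-NSC, 36.4% to 38.2% in P0-NSC and 62.6% to 63.0% in AST. The AST libraries did not overlap with any other library in this share, and AST 2 and A-iSC 3, which stood apart in level, lay with their own groups. Counted per kb of a gene's own bases, the shares were 48.6% ± 1.67 in A-iSC, 45.2% ± 1.56 in P56-NSC, 43.2% ± 0.934 in P0-NSC and 68.1% ± 0.447 in AST (SD, n = 3 each). The A-type genes made up 40.2% ± 1.96 of the summed FPKM in A-iSC, 32.2% ± 0.593 in P56-NSC, 40.97% ± 0.348 in P0-NSC and 23.9% ± 0.621 in AST. The B-type genes made up 18.7% ± 0.943 in A-iSC, 28.6% ± 1.60 in P56-NSC, 21.5% ± 1.33 in P0-NSC and 13.3% ± 0.698 in AST.

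**Figure D3:**
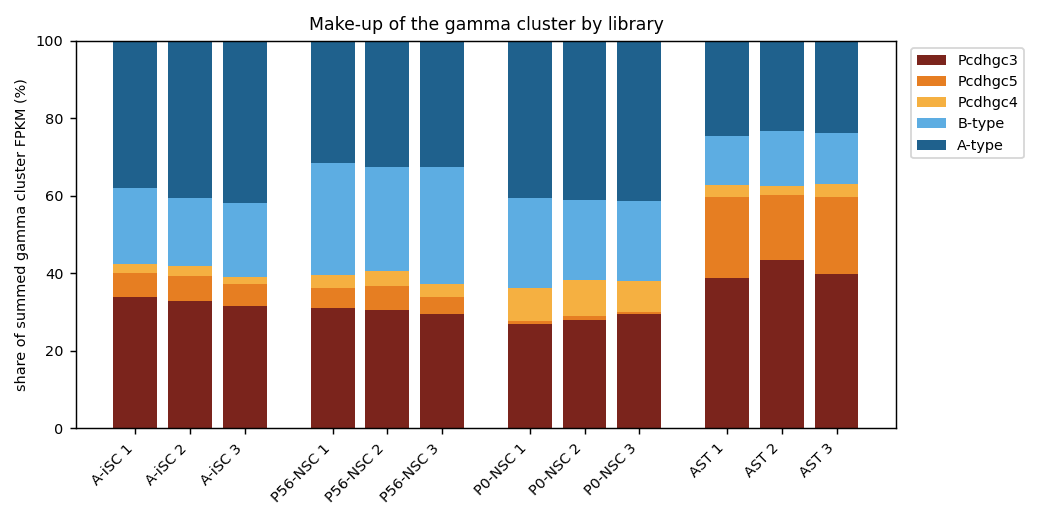
Share of summed gamma cluster FPKM (percent, vertical axis) held by Pcdhgc3, Pcdhgc5, Pcdhgc4, the 6 B-type genes and the 12 A-type genes in each library. The 3 C-type genes reach 62.6% to 63.0% in AST and at most 42.3% in the other 9 libraries, and Pcdhgc5 is widest in AST.

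Pcdhgc3, which binds the Wnt pathway protein Axin1 and shapes dendrites of cortical neurons, was the highest gamma gene in all 12 libraries. It was at 6.29, 7.17 and 19.4 FPKM in A-iSC, 16.0, 18.6 and 13.7 FPKM in P56-NSC, 16.1, 16.2 and 17.4 FPKM in P0-NSC and 12.8, 6.80 and 14.4 FPKM in AST. A-iSC spanned the other 3 groups, and none of the 6 comparisons passed the test. This rests on A-iSC 3: without it, 5 of the 6 passed, with a log2 difference of A-iSC of -0.62 against AST (adjusted p = 0.041), -1.14 against P56-NSC (adjusted p = 0.0013) and -1.19 against P0-NSC (adjusted p = 0.00090). Leaving out A-iSC 3 sets A-iSC 1 and A-iSC 2 against libraries that include AST 1 and AST 3, whose relation to gene length was opposite. The log2 difference of Pcdhgc3 from AST was -0.015 among A-iSC 1, A-iSC 2 and AST 2 with the NSC libraries. It was 0.48 among A-iSC 3, AST 1 and AST 3 with the NSC libraries. The direction of Pcdhgc3 against AST thus changed with the libraries used. Pcdhgc5 was at 1.10, 1.44 and 3.58 FPKM in A-iSC, 2.63, 3.61 and 1.98 FPKM in P56-NSC, 0.567, 0.567 and 0.305 FPKM in P0-NSC and 6.90, 2.63 and 7.17 FPKM in AST. AST 2 overlapped with A-iSC and P56-NSC, while every P0-NSC library was below all others. A-iSC fell by a log2 difference of -1.11 against AST (SE 0.33, adjusted p = 0.013), a call lost without A-iSC 1, AST 1 or AST 3 (highest adjusted p = 0.057). The log2 difference was -0.68 among A-iSC 1, A-iSC 2 and AST 2 with the NSC libraries (adjusted p = 0.037) and -0.81 among A-iSC 3, AST 1 and AST 3 with them (adjusted p = 0.014). P0-NSC fell by -2.06 against AST (SE 0.33, adjusted p = 0.00013).

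Pcdhgc4, the gamma gene that neurons need to survive during development, was highest where Pcdhgc5 was lowest, in P0-NSC. It was at 0.434, 0.526 and 1.07 FPKM in A-iSC, 1.74, 2.43 and 1.58 FPKM in P56-NSC, 5.09, 5.27 and 4.68 FPKM in P0-NSC and 0.991, 0.379 and 1.21 FPKM in AST. P0-NSC was highest with no overlap, P56-NSC came next with none, and A-iSC and AST overlapped. P0-NSC rose over AST by a log2 difference of 1.72 (SE 0.19, adjusted p = 4.2e-06), and A-iSC differed from AST by -0.14 (SE 0.19, adjusted p = 0.54).

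**Figure D4:**
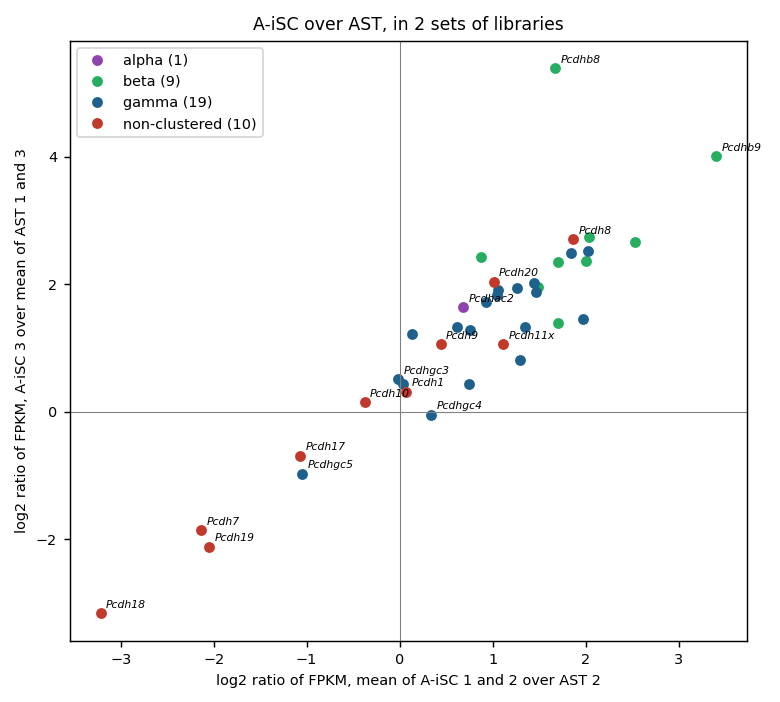
Log2 ratio of FPKM of A-iSC over AST for the 39 genes above the minimum level, within A-iSC 1, A-iSC 2 and AST 2 (horizontal axis) and within A-iSC 3, AST 1 and AST 3 (vertical axis). All 9 beta genes lie above 0 on both axes, though none reached the minimum level through AST. Pcdh18, Pcdh7, Pcdh19, Pcdh17 and Pcdhgc5 lie below 0 on both.

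Among the 12 non-clustered genes, 4 fell in A-iSC against AST and 1 rose with no minimum level, beside 14.9% and 14.2% of all genes. With the minimum, 4 of 10 fell and 1 rose, beside 30.8% and 28.1% of all genes, so the falls are near that share. Their summed level was 17.2, 18.01 and 31.5 FPKM in A-iSC, 69.2 ± 3.65 FPKM in P56-NSC, 58.2 ± 2.38 FPKM in P0-NSC and 41.6, 30.9 and 41.2 FPKM in AST. The highest A-iSC library overlapped with the lowest AST library in this sum. Pcdh10 led in A-iSC, Pcdh9 in P56-NSC, Pcdh8 in P0-NSC, and Pcdh7 or Pcdh10 in AST.

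The delta2 gene Pcdh18 (chromosome 3, 49743296 to 49757325, minus strand), whose protein binds the reelin pathway adaptor Dab1, gave the largest fall. It was at 0.573, 0.549 and 0.855 FPKM in A-iSC, 0.397, 0.522 and 0.339 FPKM in P56-NSC, 5.39, 4.54 and 5.20 FPKM in P0-NSC and 7.81, 5.22 and 7.51 FPKM in AST. A-iSC lay below AST and P0-NSC in every library and just above P56-NSC. The log2 difference was -2.23 against AST (SE 0.14, adjusted p = 6.3e-08), -1.87 against P0-NSC (adjusted p = 1.5e-07) and 0.22 against P56-NSC (SE 0.14, adjusted p = 0.17). P56-NSC was also below AST, by -2.45 (adjusted p = 8.0e-09).

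Pcdh19 (chromosome X, 133582860 to 133688987, minus strand), a delta2 gene mutated in a human epilepsy of early childhood, was at 0.493, 0.350 and 0.706 FPKM in A-iSC, 1.56, 1.70 and 1.09 FPKM in P56-NSC, 4.76, 5.62 and 5.48 FPKM in P0-NSC and 3.03, 1.74 and 3.11 FPKM in AST. A-iSC was lowest in every library and P0-NSC highest, and the A-iSC libraries overlapped with no other group. The log2 difference was -1.24 against AST (SE 0.16, adjusted p = 4.0e-05), -0.69 against P56-NSC (adjusted p = 0.0027) and -2.06 against P0-NSC (adjusted p = 3.3e-07). P0-NSC exceeded AST by 0.81 (SE 0.16, adjusted p = 0.00066).

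Pcdh17 (chromosome 14, 84443563 to 84539002, plus strand), a delta2 gene of synapses between cortex and basal ganglia, was at 0.768, 0.800 and 1.73 FPKM in A-iSC, 6.97, 8.28 and 7.26 FPKM in P56-NSC, 3.45, 3.99 and 3.48 FPKM in P0-NSC and 2.79, 1.65 and 2.78 FPKM in AST. A-iSC 3 lay just above AST 2, and P56-NSC was highest with no overlap. A-iSC fell by a log2 difference of -0.71 against AST (SE 0.18, adjusted p = 0.0048) and by -2.05 against P56-NSC (adjusted p = 8.8e-07).

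Pcdh8 (chromosome 14, 79766775 to 79771312, minus strand), the delta2 gene known as arcadlin that takes part in N-cadherin uptake at synapses in rat neurons, was the non-clustered gene that rose. It was at 1.06, 1.16 and 2.22 FPKM in A-iSC, 3.92, 4.19 and 3.79 FPKM in P56-NSC, 25.7, 23.1 and 28.9 FPKM in P0-NSC and 0.407, 0.304 and 0.273 FPKM in AST. The 4 groups did not overlap, with P0-NSC highest, then P56-NSC, A-iSC and AST. The log2 difference of A-iSC was 0.87 over AST (SE 0.15, adjusted p = 0.00039), -1.03 against P56-NSC (adjusted p = 8.4e-05) and -3.46 against P0-NSC (adjusted p = 2.2e-09). P0-NSC exceeded AST by 4.33 (SE 0.15, adjusted p = 2.4e-10), the largest difference of any member above the minimum in that comparison.

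Pcdh10 (chromosome 3, 45378398 to 45435623, plus strand), a delta2 gene that recruits the actin regulator Nckap1, was at 6.10, 6.21 and 11.1 FPKM in A-iSC, 13.4, 14.4 and 11.8 FPKM in P56-NSC, 4.23, 5.29 and 4.41 FPKM in P0-NSC and 9.77, 7.99 and 10.3 FPKM in AST. A-iSC 3 lay above all AST libraries and A-iSC 1 and A-iSC 2 below them, and the log2 difference was -0.27 (SE 0.19, adjusted p = 0.23). Without A-iSC 3 it was -0.53 and passed (adjusted p = 0.0028). It was -0.33 among A-iSC 1, A-iSC 2 and AST 2 with the NSC libraries. Among A-iSC 3, AST 1 and AST 3 with the NSC libraries it was 0.13. A-iSC was above P0-NSC by 0.60 (SE 0.19, adjusted p = 0.013) and below P56-NSC by -0.73 (adjusted p = 0.0046).

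**Figure D5:**
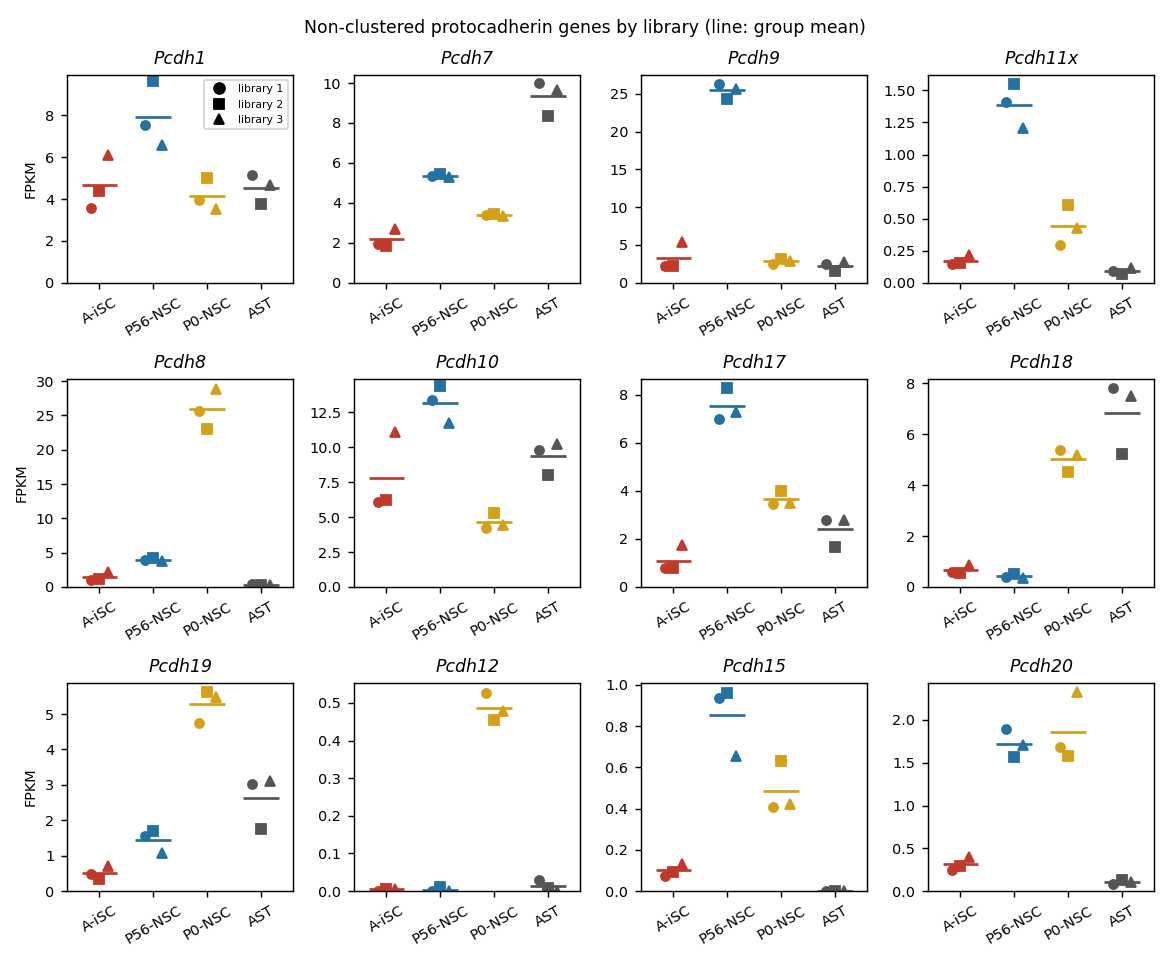
FPKM of the 12 non-clustered protocadherin genes, with 1 point per library, a line at each group mean and a linear axis from 0 in each panel. Pcdh18 is at most 0.855 FPKM in A-iSC and P56-NSC and at least 4.54 FPKM in P0-NSC and AST, Pcdh9 is highest in P56-NSC and Pcdh8 in P0-NSC.

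The 5 non-clustered genes called in A-iSC against AST passed in both subsets of A-iSC and AST libraries, fitted with the NSC libraries. Among A-iSC 3, AST 1 and AST 3 the log2 difference was -2.22 for Pcdh18, -1.25 for Pcdh19, -0.47 for Pcdh17, -1.55 for Pcdh7 and 1.27 for Pcdh8. Among A-iSC 1, A-iSC 2 and AST 2 it was -2.0 for Pcdh18, -0.95 for Pcdh19, -0.57 for Pcdh17, -1.69 for Pcdh7 and 0.69 for Pcdh8.

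Of the delta1 genes, Pcdh7 (chromosome 5, 57717967 to 58133230, plus strand), known as NF-protocadherin and needed for retinal axon growth in Xenopus, fell in A-iSC. It was at 1.95, 1.86 and 2.71 FPKM in A-iSC, 5.35, 5.43 and 5.27 FPKM in P56-NSC, 3.39, 3.45 and 3.33 FPKM in P0-NSC and 10.02, 8.36 and 9.65 FPKM in AST. The 4 groups did not overlap, with A-iSC lowest and AST highest. The log2 difference of A-iSC was -1.71 against AST (SE 0.11, adjusted p = 7.3e-08), -1.01 against P56-NSC (adjusted p = 4.6e-06) and -0.48 against P0-NSC (adjusted p = 0.00165). Of its annotated bases, 78.9% were its own and the rest overlapped with other genes.

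Pcdh9 (chromosome 14, 93013410 to 93890679, minus strand) was at 2.20, 2.16 and 5.38 FPKM in A-iSC, 26.3, 24.4 and 25.7 FPKM in P56-NSC, 2.50, 3.19 and 2.85 FPKM in P0-NSC and 2.44, 1.61 and 2.72 FPKM in AST. P56-NSC stood alone, above AST by a log2 difference of 3.04 (SE 0.23, adjusted p = 1.6e-07) and above P0-NSC by 2.79 (adjusted p = 5.6e-07), and the other 3 groups overlapped. Pcdh11x, an X-linked delta1 gene, averaged 0.173 ± 0.0353 FPKM in A-iSC, 1.39 ± 0.173 FPKM in P56-NSC, 0.444 ± 0.157 FPKM in P0-NSC and 0.0923 ± 0.0207 FPKM in AST. It reached the minimum level through P56-NSC alone, so its test is given with no minimum level, where P56-NSC exceeded AST by a log2 difference of 1.13 (adjusted p = 1.4e-06) with no overlap. Pcdh1, an adhesion molecule of airway epithelium, averaged 4.67 ± 1.29 FPKM in A-iSC, 7.93 ± 1.56 FPKM in P56-NSC, 4.16 ± 0.774 FPKM in P0-NSC and 4.52 ± 0.691 FPKM in AST, and A-iSC and AST differed by a log2 difference of 0.02 (SE 0.18, adjusted p = 0.93). Oligodendrocyte markers were highest in P56-NSC as well (values above), and their part in the levels of Pcdh9, Pcdh11x and Pcdh1 was not tested.

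The other 3 non-clustered genes were low or listed near 0 in AST. Pcdh20 was at 0.244, 0.299 and 0.401 FPKM in A-iSC, 1.89, 1.57 and 1.70 FPKM in P56-NSC, 1.68, 1.58 and 2.32 FPKM in P0-NSC and 0.0869, 0.135 and 0.108 FPKM in AST. The A-iSC libraries lay above AST with no overlap, and the log2 difference was 0.24 (SE 0.10, adjusted p = 0.061). Pcdh15, which forms the tip links of inner ear hair cells, was at 0.0751, 0.0938 and 0.132 FPKM in A-iSC, 0.938, 0.962 and 0.656 FPKM in P56-NSC, 0.410, 0.630 and 0.423 FPKM in P0-NSC and 0.00251, 0.00207 and 0 FPKM in AST. With no minimum level it rose over AST in P56-NSC (log2 difference 0.88, SE 0.077, adjusted p = 3.8e-06) and in P0-NSC (0.57, adjusted p = 0.00012) and had an adjusted p of 0.26 in A-iSC. Pcdh12, a gene of endothelial cells, was at 0.527, 0.454 and 0.479 FPKM in P0-NSC and at most 0.0295 FPKM elsewhere, and endothelial markers were high in the same 3 libraries (values above). The part of endothelial RNA in Pcdh12 was not tested.

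Of 25 regulators of the locus (CTCF, cohesin and its loaders, DNA methyltransferases, TET enzymes and silencing factors), 24 were tested. In A-iSC against AST, 10 rose and 5 fell (28.1% and 30.8% of all genes), with a median log2 difference of 0.14 beside 0 over all genes. In P0-NSC against AST, 15 rose and 1 fell (35.9% and 38.3% of all genes, with a median of 0.44 beside -0.04), and in P56-NSC against AST, 7 rose and 6 fell (37.1% and 37.0%). In A-iSC against P0-NSC, 0 were higher and 13 lower (32.6% and 34.7%). The DNA methyltransferase gene Dnmt3a averaged 5.39 ± 0.575 FPKM in A-iSC and 2.62 ± 0.327 FPKM in AST (log2 difference 0.82, SE 0.11, adjusted p = 6.4e-05). The methylcytosine oxidase genes Tet2 and Tet3 rose in A-iSC over AST by 0.79 and 0.78, and Tet3 averaged 8.08 ± 0.241 FPKM in P0-NSC and 0.918 ± 0.0133 FPKM in AST. Tet1 averaged 2.06 ± 0.0653 FPKM in P0-NSC and 0.0989 ± 0.0224 FPKM in AST. Rest, a repressor of neuronal genes, averaged 5.95 ± 0.396 FPKM in A-iSC, 2.10 ± 0.216 FPKM in P56-NSC and 8.38 ± 0.249 FPKM in AST. The corepressor gene Trim28 averaged 36.2 ± 2.84 FPKM in A-iSC, 27.6 ± 1.02 FPKM in P56-NSC and 79.2 ± 3.86 FPKM in P0-NSC, and Dnmt1 averaged 5.72 ± 0.809 FPKM in P56-NSC and 16.6 ± 1.54 FPKM in P0-NSC.

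Of 27 genes for the proteases that cut protocadherins and for the kinases and actin regulators they act through, 10 rose and 6 fell in A-iSC against AST (28.1% and 30.8% of all genes), 12 rose and 8 fell in P56-NSC (37.1% and 37.0%), and 10 rose and 13 fell in P0-NSC (35.9% and 38.3%). Most of these counts are near the share of all genes called. Nckap1l averaged 22.2 ± 2.03 FPKM in A-iSC, 1.75 ± 0.268 FPKM in P0-NSC and 2.64 ± 0.164 FPKM in AST, a log2 difference of 2.67 over AST (SE 0.098, adjusted p = 1.4e-09). Nckap1l is the form of this actin regulator known from blood cells, and the summed microglial markers were highest in the same A-iSC libraries. Singly, 5 of these 8 markers were higher and 2 lower in A-iSC than in P56-NSC. The part of microglial RNA was not tested. Abi3 of the same complex averaged 1.76 ± 0.0927 FPKM in A-iSC and 0.164 ± 0.0191 FPKM in AST, and Cyfip2 averaged 8.06 ± 1.27 FPKM in A-iSC, 36.2 ± 5.60 FPKM in P56-NSC and 17.9 ± 3.05 FPKM in AST. Wasf3 averaged 8.62 ± 0.695 FPKM in A-iSC, 62.7 ± 6.22 FPKM in P56-NSC, 12.01 ± 1.77 FPKM in P0-NSC and 5.44 ± 0.553 FPKM in AST, and Wasf1 averaged 20.7 ± 2.77 FPKM in P0-NSC and 4.14 ± 0.564 FPKM in AST. The gamma-secretase subunit gene Ncstn averaged 13.6 ± 0.353 FPKM in P56-NSC and 55.5 ± 3.99 FPKM in AST. Ptk2b, a kinase that clustered protocadherins inhibit, averaged 5.88 ± 0.311 FPKM in A-iSC, 9.73 ± 0.296 FPKM in P56-NSC, 0.908 ± 0.337 FPKM in P0-NSC and 6.38 ± 0.589 FPKM in AST.

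Of 23 other cadherin superfamily genes, 12 were tested, and 5 rose and 2 fell in A-iSC against AST (28.1% and 30.8% of all genes), 10 rose and 2 fell in P56-NSC (37.1% and 37.0%), and 10 rose and 1 fell in P0-NSC (35.9% and 38.3%). The giant cadherin gene Fat1 averaged 14.6 ± 4.84 FPKM in A-iSC and 58.7 ± 13.8 FPKM in AST (log2 difference -1.95, SE 0.21, adjusted p = 7.2e-06). The planar polarity genes Celsr1 and Celsr2 rose in A-iSC by 1.39 and 1.29, and Celsr2 was at 8.56, 10.2 and 16.5 FPKM in A-iSC and 4.79, 2.90 and 4.66 FPKM in AST. The calsyntenin gene Clstn2 averaged 0.599 ± 0.0128 FPKM in A-iSC, 1.44 ± 0.213 FPKM in P56-NSC, 21.3 ± 0.860 FPKM in P0-NSC and 1.11 ± 0.0672 FPKM in AST. Clstn3 averaged 0.245 ± 0.0243 FPKM in A-iSC, 9.18 ± 1.83 FPKM in P56-NSC, 10.6 ± 1.43 FPKM in P0-NSC and 0.109 ± 0.0296 FPKM in AST. Cdhr3, a cadherin known from ciliated airway cells, averaged 0.211 ± 0.0292 FPKM in A-iSC, 10.3 ± 1.40 FPKM in P56-NSC, 0.377 ± 0.266 FPKM in P0-NSC and 0.0293 ± 0.0312 FPKM in AST.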

How the data were processed

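The deposited table holds FPKM values per gene and library, normalized by the authors before deposit. The submitters' processing notes name Bowtie 0.12.2 with builds mm8 and mm9, whereas coordinates in the table match GRCm38 for all 69 members. The sources used here give no counting tool. Rows without a gene name (441, holding 0.0957% to 0.156% of reads) stayed out of the tests. FPKM times gene length, divided by what 1 read is worth in the library, came out whole to 0.01 for 100% of values. Depth was 17077780 to 24452419 reads, and the precision it gives covers counting error only.

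Values were tested as log2(FPKM + 1), a scale that understates differences of genes with low values, with limma 3.58.1 in R 4.3.3. One mean per group was fitted over all 12 libraries together, genes had to reach 1 FPKM in 3 libraries, and Benjamini-Hochberg adjusted p had to be below 0.05. The same test with no minimum level took in all 69 members. A planned edgeR test was not run because the values are FPKM, and limma voom on the recovered reads was added after the data were seen. Other alternatives changed the pseudocount, the minimum level, the scaling, the replicates and the libraries used. The fit was tested on simulated data. Promoters came from RefSeq GRCm38.p6. Python 3.11.15, pandas 2.3.3, numpy 2.4.6, scipy 1.17.1 and matplotlib 3.10.9 were also used.

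Members and lists were chosen with earlier results of these data known. Single genes named were all non-clustered and C-type members, the 4 highest of each cluster, the 2 largest called differences per cluster and comparison, and from the 3 lists of related genes the 3 largest in A-iSC against AST and the 2 largest in each other comparison. Pcdha4, Pcdha7, Pcdha11, Pcdhb1, Pcdhb8, Pcdhga1 and Pcdhga10 were named after their values were seen. One gene of these lists that the rule names is not reported here.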

Additional observations from a re-analysis of the deposited data

How the results depend on the processing

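Of 144 results for single named genes, 103 passed the test, and 79 of these passed under every alternative in which the gene was tested. Of 3415 recomputed values, 9 changed sign where the main result or the alternative passed the test. Sign changes between values that did not pass, such as that of Pcdh10 in A-iSC against AST above, were not counted. Pcdh18, Pcdh7, Pcdh19, Pcdh17 and Pcdh8 kept their calls in A-iSC against AST under every alternative, while in the same comparison Pcdhgb6 lost its call in 14, Pcdhgb7 in 8, Pcdhga3 in 4 and Pcdhgc5 in 3. Pcdh10 in P56-NSC against AST lost its call in 11, and Pcdhb17 in P56-NSC against AST and Pcdh17 and Pcdh18 in P0-NSC against AST in 8 each. Of the results that did not pass, 31 passed under at least 1 alternative. Without A-iSC 3 these included Pcdhgc3 in 5 comparisons, Pcdhga7 in 4 and Pcdh10 in A-iSC against AST. In that comparison, log2 differences among A-iSC 3, AST 1 and AST 3 with the NSC libraries were 0.83 for Pcdh9 and 0.71 for Pcdhac2. There they were 0.99 for Pcdhga7 and 0.48 for Pcdhgc3. The cause of these changes was not tested.

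Of the 9 sign changes counted, those under quantile normalization were -0.13 for Pcdhb17 and -0.35 for Pcdhb19 in P56-NSC against AST. A gene-length correction gave 0.028 for Pcdh11x in A-iSC against P0-NSC. Pcdh9 in A-iSC against P0-NSC was -0.27 both without A-iSC 3 and AST 2 and among A-iSC 1, A-iSC 2 and AST 2 with the NSC libraries. Among A-iSC 3, AST 1 and AST 3 with the NSC libraries, Pcdhgc3 was 0.48 in A-iSC against AST, Pcdhga7 was 0.76 against P56-NSC and 0.59 against P0-NSC, and Pcdhga3 was 0.24 against P0-NSC.

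Counts of members called moved by over 1.5 times as follows. With no minimum level, 51 were higher in P0-NSC against AST, 39 lower in A-iSC against P0-NSC and 27 lower in P56-NSC against P0-NSC. With a minimum of 0.1 FPKM, these were 51, 39 and 28, with 39 higher in P56-NSC against AST and 26 lower in A-iSC against P56-NSC. Quantile normalization left 8 higher in A-iSC against AST, and 16 higher and 6 lower in P56-NSC against AST. Total-read scaling left 3 higher and 23 lower in P56-NSC against P0-NSC. A-iSC and AST fitted alone gave 5 higher, with fewer members tested. Without A-iSC 3 and AST 2, 9 were lower in A-iSC than in AST, 28 lower than in P56-NSC and 31 lower than in P0-NSC. Among A-iSC 1, A-iSC 2 and AST 2 with the NSC libraries, the lower counts against P56-NSC and P0-NSC were also 28 and 31. Among A-iSC 3, AST 1 and AST 3 with the NSC libraries, A-iSC had 27 higher than AST, 14 higher than P56-NSC, and 8 higher and 13 lower than P0-NSC. Where one library was left out, A-iSC against AST had 10 to 19 members up and 4 to 7 down, 16 to 27 were lower in A-iSC than in P56-NSC and 18 to 30 lower than in P0-NSC, with the highest of these 2 counts without A-iSC 3. In the other comparisons the range was 19 to 30 higher in P56-NSC against AST, 25 to 31 higher in P0-NSC against AST and 12 to 17 lower in P56-NSC against P0-NSC.

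Same-numbered libraries did not deviate together in most pairs of groups (correlations of deviations -0.395 to 0.442), so the numbers were not taken to pair them. With the replicate block, the calls up and down numbered 15 and 5 for A-iSC against AST, 24 and 3 in P56-NSC against AST, 28 and 4 in P0-NSC against AST, 6 and 17 in A-iSC against P56-NSC, 4 and 21 in A-iSC against P0-NSC, and 8 and 13 in P56-NSC against P0-NSC. The alpha genes, at 23 to 73 summed reads per AST library, are limited by depth. The planned edgeR fit was not run, and voom on recovered reads, chosen after seeing the data, called 16 members up and 5 down for A-iSC against AST.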
